A study of Homo sapiens with 12 samples.

Results

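The 45 genes described here are needed for cells to enter, pass through and leave mitosis. They were taken by symbol, by a rule that uses no measured value, but with earlier results of these data known. Each was present in all 3 deposited expression tables, which list 16489 genes (HCC70), 18215 genes (MDA-MB468 with XY018 and ATV) and 55744 genes (MDA-MB468 with GSK805). All 45 stood at 1 FPKM or above in every comparison, so none was lost to the filter on low values. FPKM counts sequenced fragments scaled to transcript length and to the mapped fragments of the library.

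Mitosis genes are transcribed in waves. Most are silent in G1, rise through S phase and peak in G2 and M, when cyclin B with CDK1 drives entry, the kinetochore and the spindle checkpoint hold anaphase until every chromosome is attached, and the anaphase-promoting complex then destroys cyclin B and securin. Many of their promoters carry a cell cycle genes homology region (CHR), read by the DREAM and MuvB complexes, and CCAAT boxes, read by NF-Y. In bulk RNA their summed level is widely used as a measure of proliferation, and it is high in triple-negative breast cancer (TNBC).

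The study treated 2 human TNBC cell lines, HCC70 and MDA-MB468, for 24 h and sequenced 1 library per condition. In each line the libraries were vehicle, the RORγ antagonist XY018 at 1.25 µM and at 2.5 µM, atorvastatin (ATV, a statin that inhibits HMG-CoA reductase) at 1.25 µM, and XY018 at 1.25 µM together with ATV at 1.25 µM. A separate experiment in MDA-MB468 compared vehicle with a second RORγ antagonist, GSK805, at 2.5 µM. By the sample labels HCC70 was grown in RPMI with serum and MDA-MB468 in the same medium with insulin, whereas the general methods of the study name DMEM with serum for MDA-MB468. Both lines were treated the day after plating, with no synchronization of the cell cycle described. No condition had a replicate, so every difference given below is between 2 libraries, has no test and has no p-value.

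Depth, estimated from the spacing of low FPKM values, was 9100000 to 9980000 fragments in the HCC70 libraries, 17600000 to 19400000 in the 5 MDA-MB468 libraries treated with XY018, ATV or their vehicle, and 8460000 and 8610000 in the GSK805 pair. Behind a member's value stood between 77 and 9968 estimated fragments. The 95% counting intervals printed with log2 ratios are exact Clopper-Pearson intervals on these fragments and cover counting error only, not the spread between cultures. Epithelial genes were high in all 12 libraries (EPCAM 58.8 to 153 FPKM), ESR1 was 0.37 to 0.67 FPKM in the 10 libraries with XY018 or ATV and their vehicles, and PGR was 0 where listed. In the GSK805 pair ESR1 was 1.77 with vehicle and 5.67 with GSK805. ERBB2 was 25.3 to 28.8 FPKM in HCC70, 25.6 with vehicle and 34.9 with XY018 at 2.5 µM in MDA-MB468, and 35.2 with vehicle and 57.7 with GSK805. Of the leukocyte and stromal markers (8 genes, of which 6 to 8 were listed), PTPRC, CD3E and CD79A never exceeded 1.06 FPKM, PECAM1 1.21 FPKM where listed, COL1A2 and DCN were 0 to 0.07 FPKM where listed, COL1A1 was 3.84 to 17.2 FPKM and CD14 was 6.16 to 419 FPKM. CD14 was higher than vehicle with XY018 in HCC70 (170 to 419 FPKM at 2.5 µM) and lower in MDA-MB468 (17.9 to 7.33 FPKM), so that the summed level of the list ranged from 176 to 425 FPKM in HCC70, 16.1 to 23.9 FPKM in the 5 MDA-MB468 libraries, and 104 (vehicle) to 69.5 (GSK805) FPKM. The summed level of the 6 epithelial genes was 1945 FPKM with vehicle and 1215 with XY018 at 2.5 µM in MDA-MB468, and 2284 with vehicle and 1337 with GSK805, with 3 of 6 lower by at least 1.5-fold in each. In HCC70 the sums were 1836 with vehicle, 1378 with XY018 at 2.5 µM and 1134, the lowest, with both compounds. The part of these genes in the results below was not tested.

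The promoters of most members held at least 1 of 2 sequence features that the choice of genes did not use. RefSeq (GRCh38.p14) lists a promoter window, 250 bases before to 50 bases after the start, for 38 of the 45 members and for 27305 genes in all. Both strands were searched for each motif. The CHR core TTTGAA began within 50 bases of the start in 24 of 38 members (63.2%) and in 5.77% of all genes. CCAAT lay upstream of the start in 29 of 38 members (76.3%) and in 37.2% of all genes, and 20 members (52.6%, against 11.6% of all genes) held more than 1. Both features together were present in 18 members (47.4%) and in 2.53% of all genes. A match is a description of letters and says nothing of which factor was bound.

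**Figure D1:**
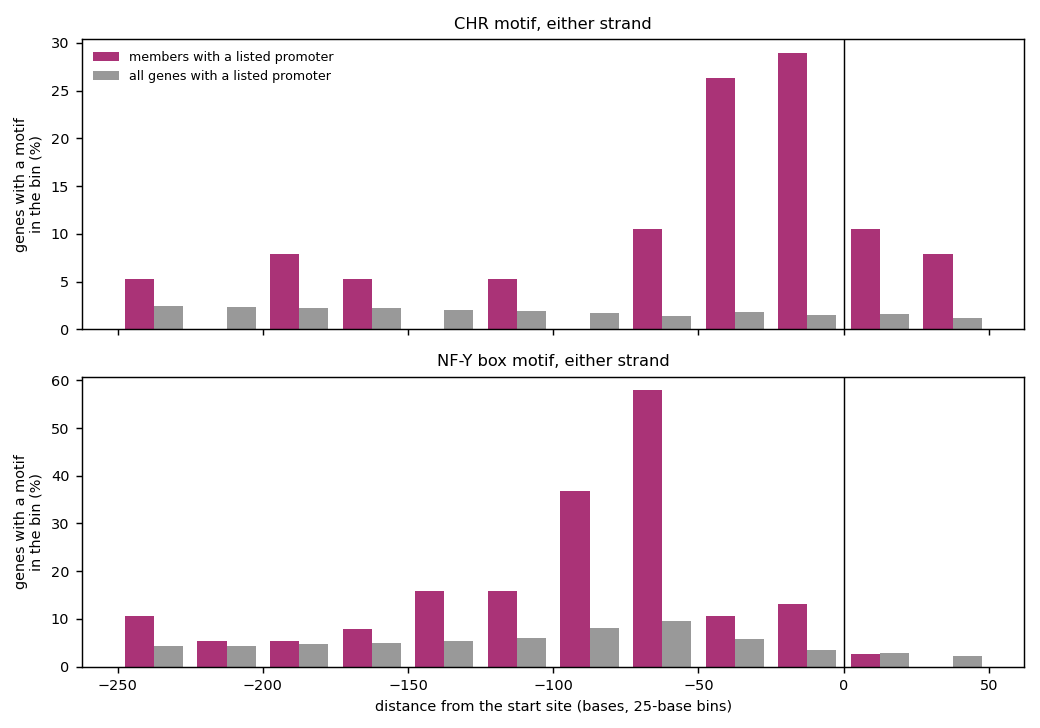
Share of genes with a CHR (top) or NF-Y box (bottom) motif on either strand in each 25-base bin, against distance from the start site in bases, for the 38 members with a listed promoter (purple) and 27305 genes (grey). The members' CHR matches peaked from 50 to 1 bases before the start (26.3% and 28.9% of members in the last 2 bins before it) and their CCAAT matches from 75 to 51 bases before it (57.9%).

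The 150 bases before the start are printed for the 5 members with the largest and the 3 with the smallest summed absolute log2 ratio over the 9 comparisons with vehicle, among members with 1 listed promoter, so that the promoters of strongly and weakly changed members can be set side by side. Capitals mark CHR cores and CCAAT boxes on either strand. The windows (GRCh38.p14) are chr7:36389712-36389861 (+, ANLN), chr10:128126424-128126573 (-, MKI67), chr5:138178962-138179111 (+, KIF20A), chr4:17810829-17810978 (+, NCAPG), chr4:103198344-103198493 (-, CENPE), chr1:44739687-44739836 (+, KIF2C), chr5:163460482-163460631 (+, HMMR) and chr9:89311045-89311194 (+, CKS2).
ANLN: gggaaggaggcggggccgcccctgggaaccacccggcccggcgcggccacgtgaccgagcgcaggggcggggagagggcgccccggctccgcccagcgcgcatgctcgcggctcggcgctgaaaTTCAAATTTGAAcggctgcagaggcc
MKI67: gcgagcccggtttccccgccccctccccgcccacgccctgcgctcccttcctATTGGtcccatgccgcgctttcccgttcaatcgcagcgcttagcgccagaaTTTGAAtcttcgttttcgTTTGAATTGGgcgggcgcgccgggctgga
KIF20A: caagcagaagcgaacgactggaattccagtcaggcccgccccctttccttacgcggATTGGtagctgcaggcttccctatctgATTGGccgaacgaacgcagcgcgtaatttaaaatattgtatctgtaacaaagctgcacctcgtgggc
NCAPG: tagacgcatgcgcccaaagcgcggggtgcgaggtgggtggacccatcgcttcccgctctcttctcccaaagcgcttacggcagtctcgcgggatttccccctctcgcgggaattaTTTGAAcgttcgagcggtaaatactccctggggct
CENPE: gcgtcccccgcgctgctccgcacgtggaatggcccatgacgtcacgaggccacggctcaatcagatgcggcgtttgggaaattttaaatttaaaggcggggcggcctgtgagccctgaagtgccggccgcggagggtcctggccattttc
KIF2C: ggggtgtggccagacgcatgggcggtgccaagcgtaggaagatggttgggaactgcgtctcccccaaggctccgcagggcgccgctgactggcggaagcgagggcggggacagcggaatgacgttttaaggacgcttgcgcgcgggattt
HMMR: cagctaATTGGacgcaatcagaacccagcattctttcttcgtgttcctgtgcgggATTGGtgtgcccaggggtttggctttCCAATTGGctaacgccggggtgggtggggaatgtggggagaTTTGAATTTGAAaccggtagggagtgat
CKS2: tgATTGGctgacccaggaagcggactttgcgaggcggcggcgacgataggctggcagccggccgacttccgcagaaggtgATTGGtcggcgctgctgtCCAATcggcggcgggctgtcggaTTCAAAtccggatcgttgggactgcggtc
ANLN, MKI67 and NCAPG of the strongly changed members and HMMR and CKS2 of the weakly changed members held a CHR core in the last 50 bases, while CENPE and KIF2C held neither feature in this window. In MKI67 a CHR core and a CCAAT box share 1 base, in HMMR 2 CCAAT boxes overlap, and in ANLN and HMMR 2 CHR cores adjoin. In MDA-MB468 the members with a CHR core near the start had the smaller median change, and in HCC70 the medians of members with and without one lay close together. With XY018 at 2.5 µM in MDA-MB468 the median log2 ratio was -0.61 for the 24 members with one and -0.83 for the 14 without, with GSK805 the medians were -0.37 and -0.53, and in HCC70 with XY018 at 2.5 µM they were -0.10 and -0.08. For CCAAT the medians in MDA-MB468 with XY018 at 2.5 µM were -0.63 (29 members with) and -0.72 (9 without). They were -0.44 and -0.57 with GSK805, and -0.10 and -0.12 in HCC70 with XY018 at 2.5 µM.

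In vehicle-treated cells the members were well expressed, and their order of levels was led by different genes in the 2 lines. HCC70 vehicle ranged from 8.51 FPKM (CDC25C, the phosphatase that activates CDK1) to 162 FPKM (PLK1, the polo-like kinase), with a median of 36.0. The MDA-MB468 vehicle paired with XY018 and ATV ranged from 4.64 FPKM (CENPE, the kinetochore motor) to 247 FPKM (PTTG1, securin), with a median of 32.0. The vehicle library of the GSK805 experiment ranged from 4.53 FPKM (ASPM, a spindle pole protein) to 210 FPKM (PTTG1), with a median of 29.7. The middle member stood above 81.2%, 78.1% and 70.3% of the genes at 1 FPKM or above in these 3 libraries. The tables were normalized separately, so levels from different tables are set side by side. No ratio between tables is drawn, apart from an alternative vehicle for GSK805 given at the end.

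The clearest change was in MDA-MB468 with XY018 at 2.5 µM. Of the 45 members, 44 were below vehicle and 25 (55.6%) were lower by at least 1.5-fold, the threshold used for all calls here, where 14.5% of 11919 genes were that much lower and 14.1% that much higher. No member was called higher. The members' median log2 ratio was -0.63 beside 0.002 for all genes, 13.1% of all genes lay below the members' median, and 18 members were among the lowest 10% of all genes. The counting interval lay below 0 for 43 members, all but BUB3 and CKS2. The share of all genes with such an interval was not computed, so this count has no baseline. Summed FPKM of the members went from 1851 to 1206, a change of -34.9%. In a bulk library fewer cells in G2 and M and less of these transcripts per cell cannot be told apart.

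**Figure D2:**
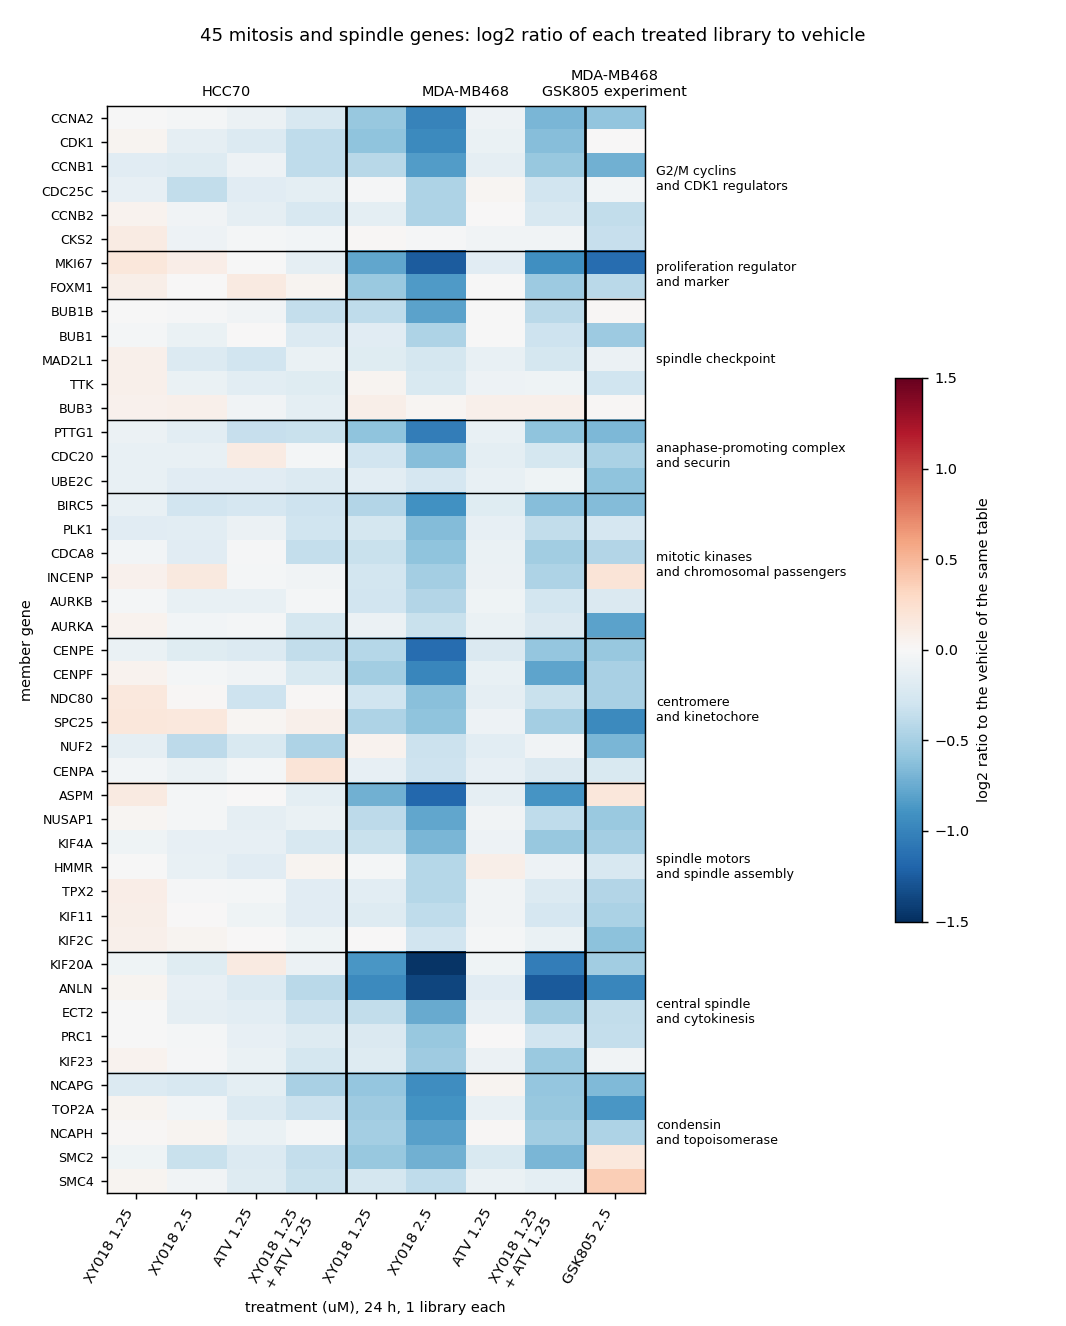
Log2 ratio of each treated library to the vehicle of its own table (colour, blue lower and red higher) for the 45 members in rows, grouped by role, and the 9 treated libraries in columns. The MDA-MB468 columns with XY018 are blue for most members and deepest at 2.5 µM, where KIF20A reached -1.47, while the HCC70 columns stay within -0.48 to 0.19.

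At 1.25 µM XY018 the same line showed a smaller difference. Members called lower numbered 6 (13.3%; 8.38% of 11844 genes), none was called higher (9.73% of genes), 40 of 45 were below vehicle, and the median log2 ratio was -0.29. The 6 were ANLN, KIF20A, MKI67, ASPM, CDK1 and PTTG1. The highest members were BUB3 (0.09), NUF2 (0.05) and TTK (0.04). Set directly against each other, the 2.5 µM library was below the 1.25 µM library for each of the 45 members, with a median log2 ratio of -0.34, and 32 members were among the lowest 10% of all genes for that step. A step of at least 1.5-fold was reached by 2 members, CENPE (-0.72) and KIF20A (-0.60), beside 1.73% of genes. Levels were ordered vehicle, 1.25 µM, 2.5 µM from high to low for 40 of 45 members, and the 2.5 µM library was the lowest of the 5 for 41.

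The cyclins and regulators of CDK1 open the program of entry into mitosis. CDK1, the kinase itself (GRCh37 chromosome 10, 62538089 to 62554610), was 32.4 FPKM with vehicle, 21.3 with XY018 at 1.25 µM, 16.6 at 2.5 µM, 30.2 with ATV and 20.8 with both compounds in MDA-MB468. In HCC70 the 5 values in the same order were 49.5, 50.8, 45.3, 43.0 and 37.9 FPKM. All 3 MDA-MB468 libraries with XY018 were below the 2 without it, and the log2 ratio at 2.5 µM was -0.96 (interval -1.11 to -0.82), while in HCC70 the vehicle and low-dose XY018 libraries were highest and the combination lowest. In the GSK805 experiment CDK1 was 72.6 FPKM with vehicle and 73.0 with GSK805, a log2 ratio of 0.01 (-0.12 to 0.13).

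CCNB1, cyclin B1, differed from CDK1 in that it was lower with both antagonists. Its MDA-MB468 values were 44.5 FPKM with vehicle, 33.2 and 24.8 with XY018 at 1.25 and 2.5 µM, 40.4 with ATV and 30.0 with both. With GSK805 it was 54.1 against 89.4 FPKM with vehicle. The log2 ratios at 2.5 µM were -0.84 for XY018 and -0.72 for GSK805, with overlapping intervals. In HCC70, CCNB1 read 50.9, 45.2, 44.3, 48.2 and 39.2 FPKM, with vehicle highest and the combination lowest. CCNA2, cyclin A2, was lower with XY018 at 2.5 µM (28.3 to 14.1 FPKM, log2 -1.004), CCNB2 and CDC25C were at -0.46 and -0.47, and CKS2, a small CDK-binding subunit, was 78.3 and 77.6 FPKM.

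FOXM1 and MKI67 had the largest median change of the 9 roles with either antagonist at 2.5 µM in MDA-MB468, and in HCC70 with XY018 at 2.5 µM their median was 0.05. FOXM1, a transcription factor that activates G2 and M genes, was 40.2 FPKM with vehicle, 27.4 and 22.3 with XY018 at 1.25 and 2.5 µM, 39.98 with ATV and 27.6 with both in MDA-MB468. The ATV library thus matched vehicle, and the combination matched XY018 alone. Its HCC70 values were 63.7, 67.9, 64.1, 70.1 and 65.5 FPKM, with vehicle the lowest of the 5, and in the GSK805 experiment it was 25.2 and 19.0 FPKM. FOXM1 shares 15.9% of its exonic bases with ITFG2 on the opposite strand, and counting by strand was not stated.

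MKI67, the gene of the Ki-67 proliferation antigen (chromosome 10, 129894923 to 129924687), was among the 3 lowest members with XY018 at both doses, with both compounds and with GSK805 in MDA-MB468. It was 40.5 FPKM with vehicle, 23.5 and 17.0 with XY018 at 1.25 and 2.5 µM, 35.9 with ATV and 21.4 with both, and 30.9 and 13.97 FPKM in the GSK805 pair. Both antagonists at 2.5 µM left it more than 2-fold below vehicle, at -1.25 (-1.31 to -1.20) with XY018 and -1.14 (-1.23 to -1.06) with GSK805. In HCC70 it was above vehicle with XY018, at 70.8, 79.5, 75.7, 70.5 and 64.4 FPKM for vehicle, XY018 at 1.25 and 2.5 µM, ATV and both.

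**Figure D3:**
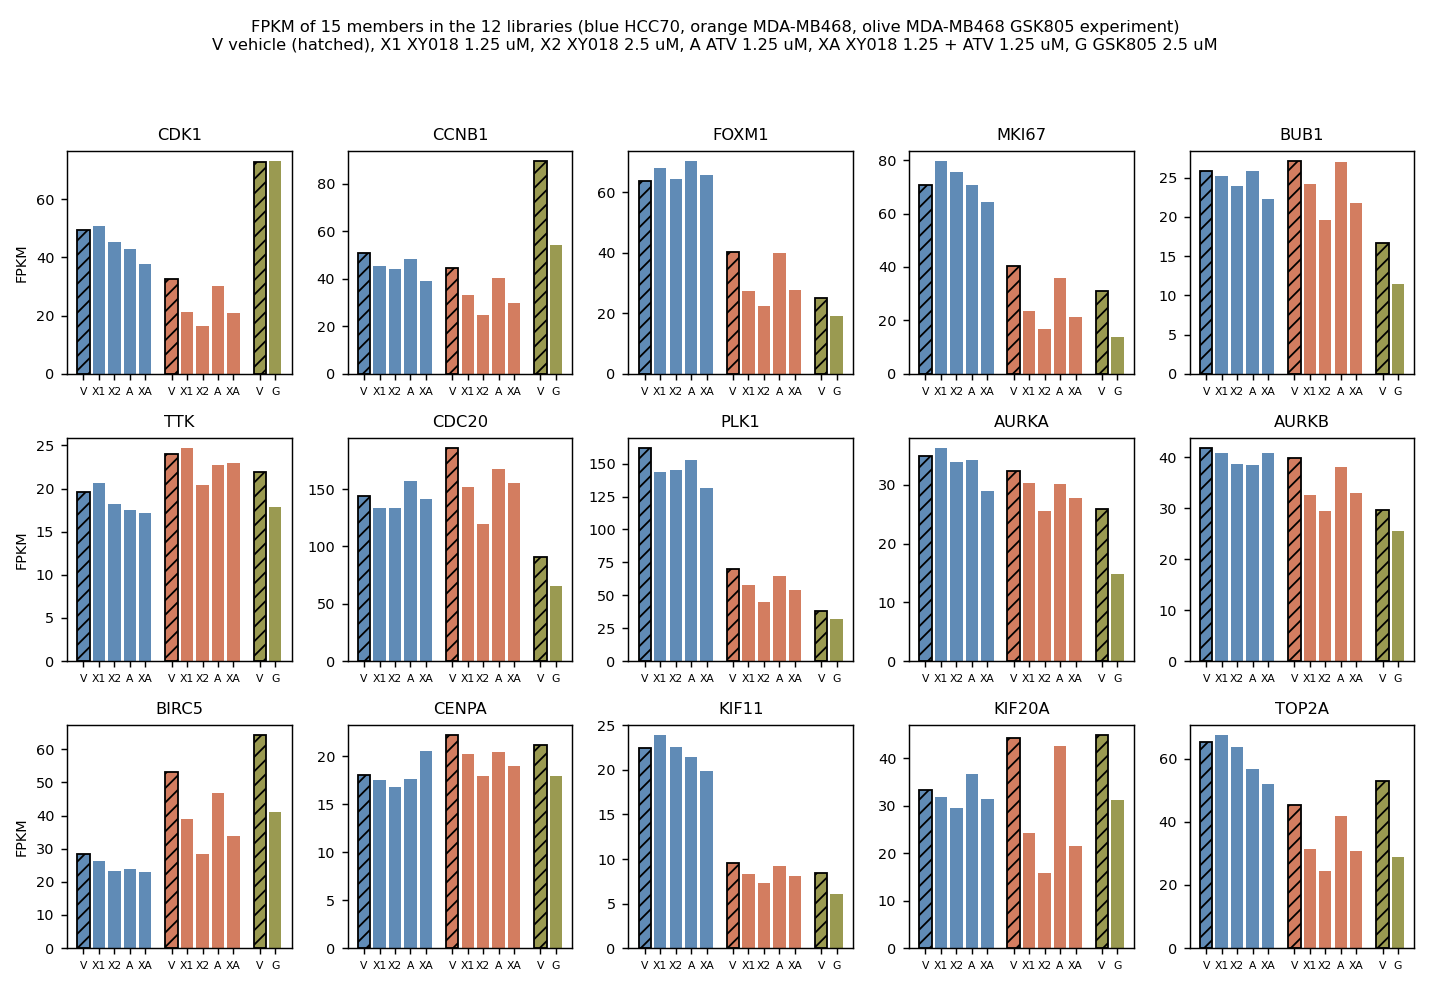
FPKM of 15 members in each of the 12 libraries, 1 bar per library, with vehicle hatched, HCC70 in blue, MDA-MB468 with XY018 and ATV in orange and MDA-MB468 with GSK805 in olive. In the orange bars KIF20A goes from 44.3 with vehicle to 15.9 with XY018 at 2.5 µM, whereas the blue bars of KIF20A stay between 29.5 and 36.7.

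The spindle checkpoint genes had the smallest median change of the 9 roles with either antagonist at 2.5 µM in MDA-MB468. BUB1, a kinase that docks checkpoint proteins on kinetochores, was 27.1 FPKM with vehicle, 24.1 and 19.6 with the rising doses of XY018, 27.1 with ATV and 21.7 with both in MDA-MB468, and 16.7 and 11.44 FPKM in the GSK805 pair. TTK, the MPS1 kinase, read 24.0, 24.7, 20.4, 22.7 and 22.9 FPKM in the same libraries and 21.98 and 17.9 FPKM in the GSK805 pair. Their log2 ratios at 2.5 µM XY018 were -0.46 and -0.23, short of 1.5-fold. HCC70 held BUB1 at 25.8, 25.3, 24.0, 25.9 and 22.3 FPKM and TTK at 19.6, 20.7, 18.2, 17.5 and 17.2 FPKM, both lowest with the combination. BUB3 (chromosome 10, 124913918 to 124929983), a WD-repeat partner of BUB1 that also acts outside mitosis, was the only member above vehicle with XY018 at 2.5 µM in MDA-MB468, at 62.4 against 61.3 FPKM (log2 0.03, -0.02 to 0.07). BUB1B, which encodes the checkpoint protein BUBR1, was the 1 of 5 checkpoint genes called lower (14.04 to 7.98 FPKM, -0.81), beside 14.5% of all genes. With GSK805 it was 24.6 against 24.3 FPKM. The group's median was -0.26 with XY018 at 2.5 µM and -0.08 with GSK805.

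Of the genes of anaphase onset, PTTG1 was called lower with both antagonists. CDC20, the activator of the anaphase-promoting complex, was 186 FPKM with vehicle, 152 and 120 with XY018 at 1.25 and 2.5 µM, 168 with ATV and 155 with both in MDA-MB468. HCC70 values were 144, 133, 134, 157 and 141 FPKM, highest with ATV. The GSK805 pair read 91.1 and 65.7 FPKM, so CDC20 was below vehicle in every MDA-MB468 comparison, past 1.5-fold only with XY018 at 2.5 µM (-0.63). PTTG1 was 247 to 121 FPKM with XY018 at 2.5 µM (-1.03) and 210 to 131 FPKM with GSK805 (-0.68), and UBE2C, the ubiquitin-conjugating enzyme of the complex, was at -0.25 and -0.61. For CDC20, UBE2C, PTTG1 and AURKA the GSK805 table lists near-identical copies at 2.36 to 56.1 FPKM (PTTG3P the highest), so the division of reads between gene and copy is uncertain for these 4.

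Among the mitotic kinases and the chromosomal passenger complex, PLK1, BIRC5 and CDCA8 were called lower with XY018 at 2.5 µM. PLK1 was 70.1 FPKM with vehicle, 58.2 and 44.8 with the rising doses, 64.4 with ATV and 54.1 with both in MDA-MB468. Its HCC70 values were 162, 144, 145, 153 and 131 FPKM, and its GSK805 pair read 38.2 and 32.1 FPKM. In each of the 3 tables vehicle was the highest library. BIRC5, survivin, which targets the passenger complex to centromeres, was 53.1, 39.0, 28.3, 46.8 and 34.0 FPKM in MDA-MB468, 28.4, 26.3, 23.3, 23.9 and 22.8 FPKM in HCC70, and 64.2 and 40.9 FPKM with vehicle and GSK805. Its log2 ratios were -0.90 with XY018 and -0.65 with GSK805, and in HCC70 it reached -0.28 (-0.45 to -0.13), among the 4 lowest members.

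Of the Aurora kinases, AURKA had intervals that did not overlap between the antagonists, and AURKB had intervals that did. AURKA, which matures spindle poles, was 32.3 FPKM with vehicle, 30.3 and 25.5 with XY018, 30.2 with ATV and 27.7 with both in MDA-MB468, a log2 ratio of -0.34 at 2.5 µM (-0.47 to -0.22). With GSK805 it was 14.9 against 25.9 FPKM, -0.80 (-1.04 to -0.56). AURKA was thus 1 of 2 members, with the microtubule depolymerase KIF2C, whose interval was lower with GSK805 than with XY018. AURKB, the kinase of the passenger complex, read 39.9, 32.7, 29.5, 38.1 and 33.1 FPKM in MDA-MB468 and 29.7 and 25.6 FPKM in the GSK805 pair, -0.44 and -0.22. HCC70 held AURKA at 34.9, 36.2, 33.8, 34.2 and 28.9 FPKM and AURKB at 41.8, 40.9, 38.8, 38.6 and 40.9 FPKM. INCENP, the scaffold of the complex, was -0.51 with XY018 and 0.19 with GSK805, with intervals on opposite sides of 0.

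Of 6 centromere and kinetochore genes 4 were called lower with XY018 at 2.5 µM and 2 with GSK805, beside 14.5% and 16.6% of all genes. CENPA, the histone H3 variant of centromeres, was 22.2 FPKM with vehicle, 20.3 and 17.9 with XY018, 20.4 with ATV and 19.0 with both in MDA-MB468, 18.0, 17.5, 16.8, 17.7 and 20.6 FPKM in HCC70, and 21.2 and 18.0 FPKM in the GSK805 pair. It was the highest member of the HCC70 combination comparison (0.19, -0.07 to 0.44). CENPE and CENPF were among the lowest with XY018 at 2.5 µM (4.64 to 2.05 and 21.3 to 10.8 FPKM, -1.14 and -0.98). Of the NDC80 complex, which binds microtubules, NDC80 and SPC25 were called lower with XY018 (-0.63 and -0.60) and NUF2 was not (-0.32), while with GSK805 SPC25 (-0.95) and NUF2 (-0.69) were called lower and NDC80 was not (-0.49). SPC25 and NUF2 rested on 189 and 125 fragments in the GSK805 vehicle, and their XY018 and GSK805 intervals overlapped.

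Spindle motors and assembly factors had a median of -0.43 with XY018 at 2.5 µM, and 3 of 7 were called lower (14.5% of all genes). KIF11, the kinesin that pushes spindle poles apart, was 9.57 FPKM with vehicle, 8.34 and 7.33 with XY018, 9.26 with ATV and 8.04 with both in MDA-MB468, and 8.48 and 6.09 FPKM in the GSK805 pair. In HCC70 it read 22.5, 23.9, 22.5, 21.4 and 19.9 FPKM, so vehicle and 2.5 µM XY018 were equal there (log2 0.00, -0.12 to 0.12). ASPM (10.6 to 4.62 FPKM), NUSAP1, a microtubule bundler (47.5 to 27.6 FPKM), and KIF4A, a chromosome-arm kinesin (17.0 to 10.5 FPKM), were the 3 called lower. ASPM was -1.18 with XY018 and 0.17 with GSK805, the widest gap of any member between the antagonists.

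Genes of the central spindle and cytokinesis held the largest single changes. KIF20A (chromosome 5, 137514408 to 137523412), a kinesin that carries the passenger complex to the midzone, was 44.3 FPKM with vehicle, 24.2 and 15.9 with XY018 at 1.25 and 2.5 µM, 42.6 with ATV and 21.5 with both in MDA-MB468. At 2.5 µM it was 2.77-fold below vehicle (log2 -1.47, -1.59 to -1.36), from an estimated 2644 fragments to 863. Its HCC70 values were 33.4, 31.9, 29.5, 36.7 and 31.3 FPKM, and with GSK805 it was 31.2 against 44.8 FPKM (-0.52). ANLN, anillin of the contractile ring (chromosome 7, 36429430 to 36493400), was -0.96 and -1.38 with XY018 at 1.25 and 2.5 µM (39.3, 20.2 and 15.02 FPKM), -1.26 with both compounds and -0.97 with GSK805 (56.2 to 28.6 FPKM). In HCC70 it was 95.8 FPKM with vehicle and 72.2 with both compounds (-0.41). ECT2, the RhoA exchange factor of cytokinesis, was called lower with XY018 at 2.5 µM (-0.76), and PRC1 and KIF23 were at -0.56 and -0.53.

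Condensin and topoisomerase genes were called lower for 4 of 5 with XY018 at 2.5 µM (14.5% of all genes), and split with GSK805. TOP2A, which untangles sister chromatids, was 45.4 FPKM with vehicle, 31.4 and 24.4 with XY018, 41.9 with ATV and 30.7 with both in MDA-MB468. The GSK805 pair read 53.0 and 28.8 FPKM, and the log2 ratios of -0.89 and -0.88 were nearly equal between the antagonists. HCC70 TOP2A was 65.3, 67.3, 63.6, 56.7 and 52.1 FPKM, lowest with the combination (-0.33, -0.40 to -0.26). NCAPG and NCAPH, regulatory subunits of condensin I, were -0.94 and -0.82 with XY018 and -0.66 and -0.46 with GSK805. The core ATPases SMC2 and SMC4, which both condensin complexes share, were -0.72 and -0.38 with XY018 but 0.15 and 0.36 with GSK805. SMC4 (chromosome 3, 160117062 to 160152742) went from 65.0 to 83.7 FPKM with GSK805, the highest ratio of any member in any comparison with vehicle. It shares 19.0% of its exonic bases with TRIM59 on the opposite strand, and NCAPG shares 33.7% with LCORL. NUSAP1 and PRC1 share 81.4% and 57.6% of theirs with same-strand gene models that have no symbol, and the exons of 13 members in all overlap another protein-coding gene.

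With GSK805 at 2.5 µM, 38 of 45 members were below vehicle and 13 (28.9%) were called lower, beside 16.6% of 19951 genes. None was called higher (17.6% of genes). These shares are over the longer gene list of this experiment. Over the 11322 genes past the filter in both MDA-MB468 experiments, 1325 were called lower with GSK805 and 1642 with XY018 at 2.5 µM. The members' median was -0.46 beside 0.007 for all genes, and their summed FPKM changed by -24.3%. Of the 19951 genes 21.4% lay below the members' median, and 3 of the 45 members were among the lowest 10% of these genes. The lowest were MKI67 (-1.14), ANLN (-0.97) and SPC25 (-0.95), and the highest SMC4 (0.36), INCENP (0.19) and ASPM (0.17). The table of this experiment stood apart from the others, since its 10 most abundant genes held 46.5% and 50.1% of all FPKM, against 6.72% to 10.6% in the other MDA-MB468 libraries.

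The 2 antagonists can be set side by side at 2.5 µM and 24 h in MDA-MB468, in separate experiments with separate vehicles. Both left 38 members below vehicle. Called lower with both were 9 members, which is 36.0% of the 25 called with XY018 and 69.2% of the 13 called with GSK805, namely CCNA2, CCNB1, MKI67, PTTG1, BIRC5, SPC25, ANLN, TOP2A and NCAPG. Over the 11322 genes past the filter in both tables, those called lower with both were 34.5% of the XY018 list and 42.7% of the GSK805 list. The rates of calls differ, at 55.6% of members and 14.5% of all genes with XY018, and 28.9% and 16.6% with GSK805. A larger shared percentage among members therefore cannot be read as closer agreement between the antagonists. Counting intervals overlapped for 24 members (53.3%), were lower with XY018 for 19 (42.2%) and lower with GSK805 for 2 (4.44%). Over 10699 genes with a MANE Select length the shares were 49.8%, 25.3% and 24.9%. Across the 45 members the log2 ratios had a Pearson r of 0.32 and a Spearman rho of 0.32, and across the 11322 genes r was 0.38 and rho 0.40, given as a description since members share their libraries. CDK1, BUB1B, ASPM, SMC2, SMC4 and INCENP were below vehicle by -0.38 to -1.18 with XY018 and between 0.01 and 0.36 with GSK805.

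**Figure D4:**
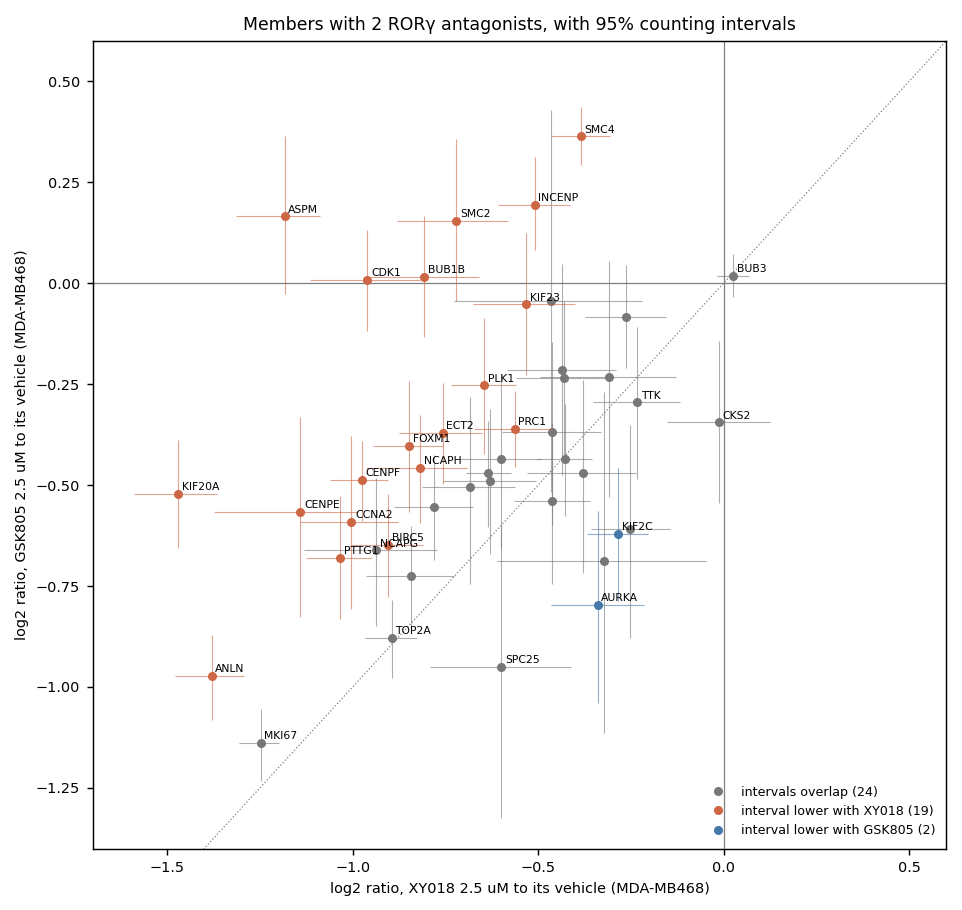
Log2 ratio to vehicle in MDA-MB468 with XY018 at 2.5 µM (x axis) and GSK805 at 2.5 µM (y axis) for each of the 45 members, with 95% counting intervals and the line of equality dotted. Members whose interval was lower with XY018 (19, orange) include CDK1, ASPM and SMC4 near or above 0 on the y axis, the 2 in blue are AURKA and KIF2C, and MKI67 and TOP2A lie close to the line.

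In HCC70 no member was called lower or higher in any of the 4 comparisons. With XY018 at 1.25 µM (2.64% of 11738 genes lower and 1.93% higher), members were evenly placed around vehicle, 22 below and 23 above, with a median of 0.01. NCAPG, CCNB1 and PLK1 were lowest (-0.20, -0.17 and -0.17) and SPC25, MKI67 and NDC80 highest (0.17, 0.17 and 0.16). At 2.5 µM (3.26% lower, 2.62% higher) 36 were below vehicle with a median of -0.10, the lowest NUF2 (-0.40), CDC25C (-0.36) and SMC2 (-0.34) and the highest SPC25 (0.16), INCENP (0.14) and MKI67 (0.10). The counting interval was below 0 for 16 members and above 0 for 3, with no share of all genes computed for comparison. For the same dose 43 of 45 members were further below vehicle in MDA-MB468 than in HCC70, and for 36 of 45 the 2 counting intervals did not overlap, each time with MDA-MB468 lower. Over 10231 genes the MDA-MB468 interval was the lower for 24.0% and the HCC70 interval for 24.0%.

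ATV alone left the members' medians a little below vehicle in both lines. Of all genes 31.2% lay below the members' median in HCC70 and 24.8% in MDA-MB468. Counting intervals were below 0 for 17 members in HCC70 and 19 in MDA-MB468, and above 0 for 3 and 1. No share of all genes was computed for these interval counts. In HCC70 (1.32% of genes lower, 2.22% higher) 38 of 45 members were below vehicle with a median of -0.10. PTTG1 (-0.34), NDC80 (-0.31) and MAD2L1 (-0.29) were lowest, and FOXM1 (0.14), KIF20A (0.13) and CDC20 (0.13) highest. In MDA-MB468 (0.803% lower, 1.37% higher) 38 were below vehicle with a median of -0.09 and no member was called. SMC2 (-0.23), CENPE (-0.21) and BIRC5 (-0.18) were lowest and HMMR (0.09), BUB3 (0.07) and NCAPG (0.04) highest. The quartiles of all genes in that comparison were -0.09 and 0.08, the narrowest of the 9 comparisons with vehicle.

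The combination of XY018 at 1.25 µM with ATV was the lowest HCC70 library for 31 of 45 members. There (2.93% of genes lower, 4.38% higher) 40 members were below vehicle with a median of -0.20, and none reached 1.5-fold. Counting intervals were below 0 for 31 and above 0 for none. The share of all genes with such intervals was not computed, so these counts are not read as a result about the members. NCAPG (-0.48), NUF2 (-0.46) and ANLN (-0.41) were lowest, and CENPA (0.19), SPC25 (0.08) and FOXM1 (0.04) highest. Against XY018 alone the median was -0.21 with 41 members lower in the combination, and against ATV alone it was -0.12 with 35 lower. The largest of these differences was ANLN against XY018 alone, at -0.45. The summed epithelial markers were also lowest in this library, and their part in the result was not tested.

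In MDA-MB468 the combination (12.2% of genes lower, 13.1% higher) had 10 members called lower (22.2%), none higher, 44 below vehicle and a median of -0.41. ANLN (-1.26), KIF20A (-1.04) and MKI67 (-0.92) were lowest and BUB3 (0.08), CKS2 (-0.05) and NUF2 (-0.06) highest. Levels lay between those of XY018 at 1.25 µM and at 2.5 µM for 34 members. Against XY018 alone the median was -0.10, no member reached 1.5-fold, and KIF23 had the lowest value (-0.36). Against ATV alone the median was -0.36 and 7 members (15.6%, 11.1% of genes) were called lower, namely ANLN, KIF20A, ASPM, MKI67, CENPF, NCAPG and CCNA2.

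**Figure D5:**
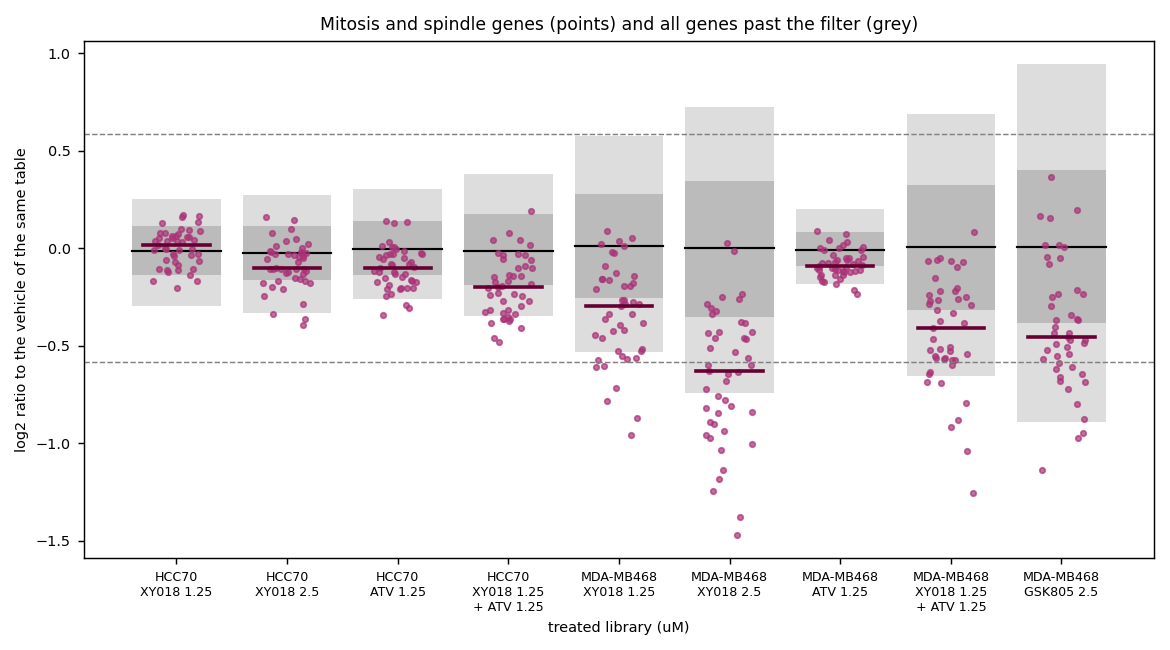
Log2 ratio to vehicle of the 45 members (purple points, bar at their median) in each of the 9 treated libraries, over the range between quartiles (dark grey) and from the 10th to the 90th percentile (light grey) of all genes past the filter, with the median of all genes in black and 1.5-fold dashed. The members' median moves from 0.01 in HCC70 with XY018 at 1.25 µM to -0.63 in MDA-MB468 with XY018 at 2.5 µM while the median of all genes stays between -0.024 and 0.011.

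Role groups were ordered differently by the 2 antagonists. With XY018 at 2.5 µM in MDA-MB468 the medians ran from -1.05 (FOXM1 and MKI67, 2 of 2 called lower), -0.82 (condensin and TOP2A, 4 of 5) and -0.76 (cytokinesis, 3 of 5) through -0.65 (cyclins, 3 of 6), -0.63 (anaphase onset, 2 of 3), -0.61 (kinetochore, 4 of 6) and -0.55 (kinases and passengers, 3 of 6) to -0.43 (spindle, 3 of 7) and -0.26 (checkpoint, 1 of 5). With GSK805 they were -0.77 (1 of 2), -0.46 (2 of 5), -0.37 (1 of 5), -0.36 (2 of 6), -0.61 (2 of 3), -0.53 (2 of 6), -0.34 (2 of 6), -0.47 (1 of 7) and -0.08 (0 of 5) in the same order. Of all genes 14.5% were called lower with XY018 and 16.6% with GSK805, and the smaller counts, such as 1 of 7, lie near these shares.

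Other genes of mitosis, 97 in 5 lists, can be read against the shares of all genes. These were 14.5% lower and 14.1% higher with XY018 at 2.5 µM in MDA-MB468, and 16.6% and 17.6% with GSK805 over its longer gene list. In MDA-MB468 with XY018 at 2.5 µM 33 of 97 were called lower and 1 higher (median -0.47). With GSK805 30 of 96 were lower and 4 higher (-0.35). In MDA-MB468 with XY018 and ATV 18 of 97 were lower and 1 higher (-0.27), beside 12.2% and 13.1% of all genes. In HCC70 with XY018 at 2.5 µM none was called either way (-0.05), beside 3.26% lower and 2.62% higher of all genes. Of 31 further kinetochore and centromere genes 8 were lower with XY018, where CENPI, an inner kinetochore subunit, was 7.39 to 2.61 FPKM (-1.47) and DSN1 highest (0.58), and 12 of 30 were lower and 3 higher with GSK805, where CENPI was -1.35 and KNL1 1.66. Of 24 further spindle and cytokinesis genes 11 were lower with XY018 (FAM83D lowest, -0.99) and 10 with GSK805 (DEPDC1B lowest, -1.28), none higher.

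Of 12 mitotic kinases, phosphatases and associated regulators 7 were lower and 1 higher with XY018, with PLK4 lowest (-1.11) and BORA highest (1.22, 2.50 to 5.97 FPKM). With GSK805 5 of these were lower (MASTL lowest, -0.94). Of 14 cohesin, separase and condensin II genes, a list that also holds condensin I's NCAPD2, 5 were lower with XY018, with ESPL1, separase, lowest (-0.85). With GSK805 2 of the 14 were lower (NCAPD2 lowest, -1.59), near the 16.6% of all genes, and 1 was higher (STAG2, 1.04), below the 17.6%. The 16 subunits and regulators of the anaphase-promoting complex had medians of 0.02 with XY018 and 0.04 with GSK805. With XY018 2 were called lower (ANAPC15 lowest, -0.84), near the 14.5% of all genes, and with GSK805 1, UBE2S (-0.78), below the 16.6%.

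The regulators listed under DREAM and MuvB, which also hold E2F and RB family members and CDKN1A, moved in both directions. With XY018 at 2.5 µM in MDA-MB468, 2 of 11 were called lower and 3 higher (median 0.05), beside 14.5% and 14.1% of all genes. E2F1 was 27.2 to 10.8 FPKM (-1.33), LIN37, a MuvB subunit, 12.7 to 27.6 FPKM (1.12), and MYBL2, the B-MYB factor that joins MuvB for G2 genes, 110 to 44.8 FPKM (-1.29). With GSK805 2 were lower, MYBL2 (61.7 to 25.5 FPKM, -1.27) and E2F1 (-1.11), and none was higher. MYBL2 in HCC70 was 216 FPKM with vehicle and 220 with XY018 at 2.5 µM. CDKN1A, the CDK inhibitor p21, was 11.41 FPKM with vehicle and 24.3 with XY018 at 2.5 µM in MDA-MB468, and 28.2 with vehicle and 19.7 with GSK805 (log2 1.08 and -0.51), a gene named after its values were seen, as were MYBL2 with XY018 and E2F1 with GSK805.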

How the data were processed

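RNA was taken from 12 cultures, 1 per condition, after 24 h and sequenced with an Illumina TruSeq library. Per the labels and the study's methods, the authors aligned reads with BWA and Bowtie to GRCh37 and deposited FPKM values computed with Cufflinks, in 3 separately normalized tables. Versions and strand are not given in the sources used here. Genes were matched by symbol, and a symbol with several rows kept the row with the highest mean.

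Log2 ratios were computed within a table, except for the alternative vehicle named below. They were taken after adding 0.1 FPKM, over genes at 1 FPKM or above in either library, and are on that scale. A gene was called at 1.5-fold or more. With 1 library per condition no test was run. Depth was estimated from the spacing of low FPKM values and MANE Select lengths (GENCODE 44), and gave exact Clopper-Pearson 95% intervals. The calculation was checked on simulated data. Coordinates are GENCODE 44 on GRCh37, promoters RefSeq on GRCh38.p14, and the window of 50 bases around the start was set here.

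The members and lists were chosen with earlier results of these data known. Values in every library were printed for the first gene of each of the 9 roles and for PLK1, AURKA, AURKB, CCNB1, TOP2A, MKI67, BIRC5, CDC20 and TTK. The 3 lowest and 3 highest members per comparison with vehicle were named. Of each other list the lowest gene with each antagonist at 2.5 µM in MDA-MB468 was named, and the highest gene for some lists only. Alternatives were another pseudocount, filter, fold, handling of repeated symbols, centring and vehicle. Calculations used scipy 1.17.1 and pandas 2.3.3 under Python 3.11.15, with numpy 2.4.6, and plots matplotlib 3.10.9.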

Additional observations from a re-analysis of the deposited data

Results flagged for a closer look

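Several members had counting intervals on opposite sides of 0 for the same treatment in different lines or for the 2 antagonists. None of these differences was tested, because each condition had 1 library. With XY018 at 1.25 µM the log2 ratios in HCC70 were 0.092 for FOXM1, 0.17 for MKI67, 0.10 for TPX2 and 0.14 for ASPM, while in MDA-MB468 they were -0.55, -0.79, -0.16 and -0.72. At 2.5 µM MKI67 was 0.10 in HCC70 and -1.25 in MDA-MB468, and INCENP was 0.14 and -0.51. With ATV, CDC20 was 0.13 in HCC70 and -0.15 in MDA-MB468, and with both compounds BUB3 was -0.15 in HCC70 and 0.08 in MDA-MB468. Between the antagonists at 2.5 µM in MDA-MB468, INCENP was -0.51 with XY018 and 0.19 with GSK805, and SMC4 was -0.38 and 0.36.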

How the results depend on the processing

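Of 225 values computed under alternatives, 219 stayed close to the reported value. Of the 219, 142 were counts of called members, and the 6 values that moved were counts too. A count cannot reverse, and in the other values no reversal was seen. Counts of members called higher, and in HCC70 lower, were 0 in the main calculation and were scored as kept when they stayed 0. Removing the filter could not change a member, since every member passed it. Part of this agreement was therefore fixed in advance. The largest shift of a median over the members was 0.0572 on the log2 scale. At a 2-fold threshold the members lower than vehicle in MDA-MB468 numbered 0 with XY018 at 1.25 µM, 7 at 2.5 µM, 2 with both compounds and 1 with GSK805, since fewer values reach a larger fold. The share of all genes past 2-fold was not computed, so these counts cannot be set against it. Against the vehicle of the XY018 and ATV experiment, a library of another table, GSK805 had 20 members lower and 4 higher, with a median of -0.46. This ratio joins separately normalized tables, and no share of all genes was computed for it. The counts are therefore not read as a result about the members, and the cause was not tested. Without the 4 members that have a copy listed at 1 FPKM or above, an alternative chosen after seeing the data, 23 of 41 were lower with XY018 at 2.5 µM and 10 with GSK805. The shares of all genes called lower at 1.5-fold were 14.5% and 16.6%. No paired analysis was possible because each condition had 1 library, and for the same reason no replicate could be left out. Depth limits the least abundant members, such as CDC25C with 77 estimated fragments with GSK805, and the intervals cover counting error only.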
